A study of Mus musculus with 26 samples.

Results

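The genes described here were high on day 3 of reprogramming with Oct4, Sox2 and Klf4 (OSK) and lower on days 0 and 7. They were chosen by measured values: a mean log2(value + 1) on OSK day 3 at least 1.5 above OSK day 0 and at least 1.5 above OSK day 7, with a mean value of at least 50 on OSK day 3. The rule found 129 of the 18198 genes in the table. Of these, 119 are protein coding, 4 are lincRNAs, 2 are pseudogenes, 2 are of the unverified TEC class and 2 have no entry in the annotation. All 129 were among the 16038 genes tested, and all 129 would also have passed the filter on low values without the OSK day 3 libraries.

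The study followed mouse embryonic fibroblasts (MEF) infected with retrovirus made in PlatE packaging cells, in 26 RNA-seq libraries, 2 for each of 13 groups. OSK cells were sampled on days 0, 1, 3, 5 and 7. OSK-cJun cells, whose label adds Jun, a subunit of the transcription factor AP-1, to the OSK factors, were sampled on days 0, 1, 3 and 7. OSK-shSap30 cells, whose label adds a hairpin RNA, delivered by lentivirus, against Sap30, a subunit of the Sin3 histone deacetylase complex, were sampled on day 7. The remaining groups were MEF at passage 2, induced pluripotent stem cells (iPSC) from picked colonies at passages 5 to 8, and embryonic stem cells (ESC) of the strain CBA/CaJ X C57BL/6J at passages 20 to 24. Infected cells were kept in iCD1 or ESC medium, iPSC and ESC in N2B27+2i+LIF, and MEF with FBS, and the labels do not say which infected group had which medium. No strain is given for the other groups. The labels do not say that the 2 libraries of a group came from separate cultures, so p-values measure the spread between libraries, which may be technical. Values given as a pair are those of replicate 1 and replicate 2.

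Values were normalised so that every library has the same distribution, and they are not scaled for gene length, so levels are compared between libraries and never between genes. The highest value in each library is 21544, shared by 10 genes, and a difference that ends at this ceiling may be understated. Pou5f1, which encodes Oct4, checked the labels: it was at 2 and 0 in MEF, at 11662 and 8974 on OSK day 0, and at 21544 in both libraries of OSK days 1 and 3, so the day 0 libraries already held the factor. One library stood apart. On OSK day 5, Pou5f1 was at 656 in replicate 1 and at 21544 in replicate 2, and Klf4 and Sox2 were also lower in replicate 1 (3263 against 11663, and 1792 against 6116). Jun lay between 4616 and 8981 in the 8 OSK-cJun libraries and between 321 and 1010 in the 10 OSK libraries. Sap30 was at 20 and 41 in OSK-shSap30 and at 301 and 378 in OSK on day 7. Bulk values cannot tell fewer cells that express a gene from less RNA per cell.

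Reprogramming by Oct4, Sox2 and Klf4 first silences the fibroblast programme and later switches on the pluripotency network, and many genes are transcribed only in between. Cells also carry an innate antiviral system. Sensors of foreign nucleic acid lead to secretion of interferons, which act through their receptors and STAT and IRF transcription factors on promoters that hold an interferon-stimulated response element. The products of these target genes block viral replication (Ifit, Mx and Rsad2 proteins), attack the membranes of vacuoles that hold pathogens (guanylate-binding proteins and other interferon-induced GTPases) or present antigen.

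Of the 129 genes, 14 stand on the lists of interferon system genes used here. They are the GTPase genes Tgtp1, Gbp2, Gbp2b, Gbp3 and Gbp7, the sensor gene Zbp1, the effector genes Ifit1, Ifit3b, Mx1, Rsad2, Cmpk2, Slfn5 and Trim21, and the MHC class I gene H2-T24. Several lie side by side in GRCm38. Gbp7, Gbp3, Gbp2b and Gbp2 follow each other at chr3:142530342-142638008 with gaps of 1422 to 21637 bases, Rsad2 and Cmpk2 lie 12751 bases apart on chromosome 12, and Ifit3b and Ifit1 lie 27469 bases apart on chromosome 19. Such neighbours are close paralogs in the Gbp and Ifit families, and Tgtp1 has a near-identical copy, so the authors' counting may have split reads among them. Tgtp1 also overlaps the gene models Gm12185 and Olfr56.

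The promoters of these genes share a sequence feature that the rule did not use. The interferon-stimulated response element was searched as GAAA, any 2 bases and GAAA again, on either strand, from 250 bases before to 50 bases after each start site in RefSeq (GRCm38.p6), and a gene was counted if any of its start sites had it. The element was present for 10 of the 11 listed interferon members with a promoter in the table. Over the whole interferon lists it was present for 43 of 104 genes with a promoter (41.35%). Of the 86 other members with a promoter 4 held it (4.651%), beside 1079 of all 27025 genes (3.993%). Over all 97 members with a promoter the share was 14.43%. The following stretches are shown, 5′ to 3′ along each gene, because they carry the element in interferon members with high values on day 3. Capitals mark every match, which reads TTTC, 2 bases and TTTC where it lies on the other strand.
Tgtp1, chr11:48992289-48992363, minus strand: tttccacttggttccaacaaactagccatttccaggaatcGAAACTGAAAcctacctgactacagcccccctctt
Gbp2, chr3:142620594-142620623, plus strand: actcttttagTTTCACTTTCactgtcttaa
Gbp3, chr3:142559959-142560025, plus strand: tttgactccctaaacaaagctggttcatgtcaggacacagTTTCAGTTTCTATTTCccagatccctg
Gbp7, chr3:142530243-142530317, plus strand: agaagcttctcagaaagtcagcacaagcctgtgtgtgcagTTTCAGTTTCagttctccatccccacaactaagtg
Ifit1, chr19:34640745-34640838, plus strand: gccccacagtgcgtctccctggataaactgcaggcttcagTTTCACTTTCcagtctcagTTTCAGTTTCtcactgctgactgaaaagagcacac

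The first match begins 77 bases before the RefSeq start site in Tgtp1, 59 in Gbp2, 45 in Gbp3, 53 in Gbp7 and 104 in Ifit1. In GENCODE M21 Gbp2 begins at chr3:142620602, so its match lies within the gene as annotated there. Gbp3 and Ifit1 have 2 matches each, and those of Gbp3 overlap. In Trim21 the matches lie after the start site, from position 13 on. Outside the lists the element was found for Tmem140, Tox2, Hbb-y and Nsg2. For contrast, the stretches before the start sites of Cmpk2 and Abca1 follow. Cmpk2 is the 1 listed interferon member without a match in its window, and Abca1 is a cholesterol exporter gene among the highest members.
Cmpk2, chr12:26469115-26469203, plus strand: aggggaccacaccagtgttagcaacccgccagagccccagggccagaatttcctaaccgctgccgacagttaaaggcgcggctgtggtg
Abca1, chr4:53159896-53159995, minus strand: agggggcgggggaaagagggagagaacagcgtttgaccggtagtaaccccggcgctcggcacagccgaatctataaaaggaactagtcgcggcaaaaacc

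Over the 97 members with a promoter, other short motifs were closer to their share over all genes. The gamma-activated site TTCNNNGAA was in 15 of 97 member genes (15.46%, beside 9.554% of all genes), the AP-1 motif TGANTCA in 11 (11.34%, beside 8.973%), the Klf motif GGGNGTGG in 24 (24.74%, beside 19.72%), the octamer ATGCAAAT in 3 (3.093%, beside 1.969%) and the kappaB motif (GGGA, any base, TTTCC) in 1 (1.031%, beside 0.4662%). Among the 11 listed interferon members, 2 (18.18%) held the gamma-activated site and 4 (36.36%) the AP-1 motif. Over the whole interferon lists these shares were 22.12% and 13.46%. A match is a description of letters and not a bound site.

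The day 3 peak was the highest OSK day for most members. On the mean of both libraries, OSK day 3 was the highest OSK day for 100 of the 129, day 1 for 17 and day 5 for 12. Over all 13 groups, OSK day 3 was the highest for 77, OSK-cJun day 3 for 19, OSK-cJun day 7 for 8 and OSK day 5 for 8. The rule had chosen high OSK day 3 values and allowed no member to be highest on OSK day 0 or 7. These counts are therefore descriptions. The median over members of the mean log2 level was 4.25 on OSK day 0, 6.41 on day 1, 7.73 on day 3, 7.04 on day 5 and 5.69 on day 7. By the rule itself the median difference was 3.30 between days 3 and 0 (from 1.507 to 9.157) and 2.05 between days 3 and 7 (from 1.504 to 5.15). Relative to day 5 day 3 was higher by a median of 0.96, and relative to day 1 by 1.34, where the rule had chosen high day 3 values. On day 1, 98 members were at least 1 log2 unit above day 0, beside 9.71% of all genes, and in 106 both day 1 libraries were above both day 0 libraries and in 0 below, beside 25.4% and 22.4%. The rule had chosen low day 0 values. Of the members, 47 were on day 1 within 1 log2 unit of their day 3 level or above it.

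**Figure D1:**
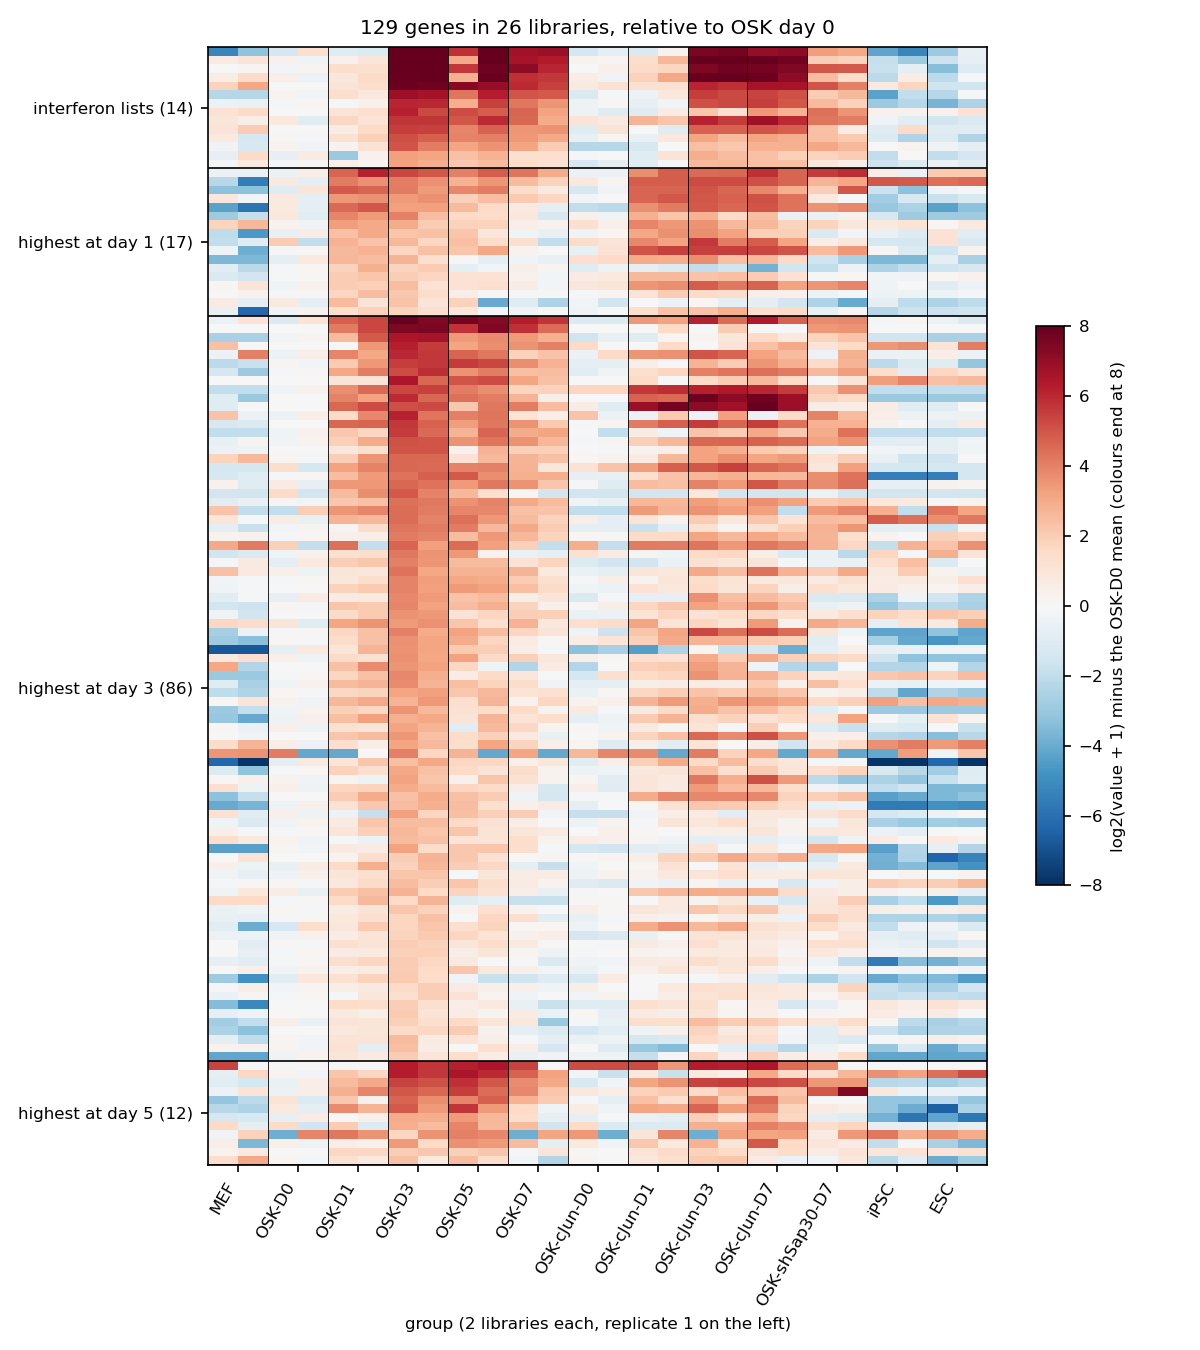
Heat map of the 129 genes (rows) in the 26 libraries (columns, replicate 1 on the left of each pair), coloured by log2(value + 1) minus the gene's mean on OSK day 0. The 14 interferon genes are at the top, red on OSK day 3 and on OSK-cJun days 3 and 7. By group means they also lie above day 0 on OSK days 5 and 7. Below them are the 17 genes highest on day 1, 86 others highest on day 3 and 12 highest on day 5.

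The 17 genes highest on day 1 included Gpr50, Bcl6, Mtr, Upp1, Klk10, Rbm24 and Tox2. Gpr50, an orphan receptor of the melatonin receptor family, was at 99 and 33 on OSK day 0, 1346 and 1858 on day 1, 567 and 578 on day 3, 333 and 167 on day 5 and 94 and 33 on day 7. Both day 1 libraries lay above both day 3 libraries. The 12 highest on day 5 included Nt5e, Gda, Il7r, Cnr1, Kynu and Tph1, and over all 12 day 3 minus day 5 ran from -0.004 in Mob3c to -1.296 in Gm5884.

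Each day 3 library was also taken alone. With replicate 1 alone as day 3, 196 genes passed the rule, 123 of them members. With replicate 2 alone, 124 passed, 86 of them members. A total of 80 members passed with each library alone, and 0 failed with both. Replicate 1 was the higher library for 90 members and replicate 2 for 34. By at least 1 log2 unit, replicate 1 was higher for 26 members and replicate 2 for 2, while over all genes tested these shares were 5.948% and 7.638%. The members thus leaned to replicate 1, while all genes did not. On day 7 replicate 1 was likewise higher for 99 members and by at least 1 log2 unit for 50, against 4 that were higher in replicate 2 by as much, beside 8.623% and 7.744% of all genes.

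In 124 members both day 3 libraries lay above all 4 libraries of days 0 and 7, as in 11.3% of all genes tested. The rule chose the members on these 6 libraries, so that count was nearly fixed by it. The exceptions were Tom1, Gm5884, A730046J19Rik, Tph1 and Trp63. Tom1, an endosomal sorting gene, was at 296 and 0 on OSK day 0, 276 and 54 on day 3 and 155 and 0 on day 7, and Gm5884 was at 0 and 215, 47 and 177, and 0 and 131. In both, the libraries of a group differed by more than the days did. Wide gaps between the day 3 libraries were also seen in Tph1 (127 and 35), Prune2 (545 and 149), Spata31d1a (86 and 23) and Col28a1 (175 and 49).

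At the edges of the rule, Vtcn1 and Col28a1 were just inside the difference from day 0 (1.507 and 1.524), and Gngt2 and Atp7a just outside it (1.482 and 1.472). Ablim1 and Arhgap26 were just inside the difference from day 7 (1.504 and 1.515), and Ypel2 and Tox3 just outside it (1.496 and 1.490). Trpv3, with a mean of 50, was just inside the minimum level, and Pgk1-rs7, at 0 and 98 in the day 3 libraries, was just outside it. Genes on both sides of these edges had similar values.

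The interferon-induced GTPase genes were low on days 0 and 1 and high on day 3. Tgtp1, a T-cell-specific GTPase gene, was at 14 and 94 on OSK day 0 and 18 and 17 on day 1, and it reached the ceiling of 21544 in both day 3 libraries. It was then at 2151 and 11667 on day 5 and 4013 and 4307 on day 7. Gbp2, a guanylate-binding protein gene, was at 27 and 16 on day 0, 27 and 41 on day 1, 7733 and 11676 on day 3, 181 and 7733 on day 5 and 2133 and 1798 on day 7. For both genes every library of days 0 and 1 was below every later library, and the step lay between days 1 and 3. Gbp3 was at 8 and 11, 26 and 24, 3038 and 3615, 525 and 2316, and 1483 and 699 over the same days. Gbp7 was at 34 and 43, 35 and 48, 2725 and 2549, 289 and 1774, and 738 and 457, and Gbp2b at 11 and 5, 15 and 24, 1998 and 2477, 60 and 2042, and 482 and 432.

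The sensor and effector members had the same step between days 1 and 3. Zbp1, which senses nucleic acids of the Z form, was at 22 and 16 on day 0, 51 and 34 on day 1, 2307 and 2032 on day 3, 377 and 1562 on day 5 and 651 and 600 on day 7. Ifit1, which binds viral RNA that lacks a host cap, was at 2 and 2, 5 and 7, 674 and 658, 467 and 383, and 186 and 133. The 2 libraries of each day were close for Ifit1, and no day overlapped its neighbour. Slfn5, a Schlafen family gene, was at 19 and 5, 34 and 22, 564 and 579, 347 and 686, and 265 and 84. Rsad2 (viperin) was at 295 and 156 on day 3, Mx1 at 159 and 83, Cmpk2 at 370 and 289, Trim21, an antibody receptor inside the cell, at 297 and 232, Ifit3b at 91 and 87 and H2-T24 at 75 and 68. Over the 14 genes the median difference between days 3 and 1 was 5.13, and over the 115 other members it was 1.19.

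A further 4 members outside the lists are also known interferon targets and were picked out after their values were seen. Wars, the cytoplasmic tryptophan-tRNA synthetase gene, was at 652 and 675 on day 0, 1251 and 1607 on day 1, 21544 in both libraries on day 3, 842 and 4611 on day 5 and 2539 and 2540 on day 7. Wdr25, which overlaps Wars by 544 bases on the other strand, was at 17 and 21 on day 0 and 309 and 204 on day 3. No use of strand is stated for the counting, so where the genes overlap their reads cannot be told apart. Rnf213, a giant ubiquitin ligase gene, was at 352 and 433 on day 0, 6937 and 6129 on day 3 and 2473 and 1366 on day 7. Tmem140 was at 6 and 16, 154 and 114, and 14 and 20 on the same days, and Gch1, which makes the cofactor tetrahydrobiopterin, at 77 and 62, 629 and 680, and 147 and 159.

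**Figure D2:**
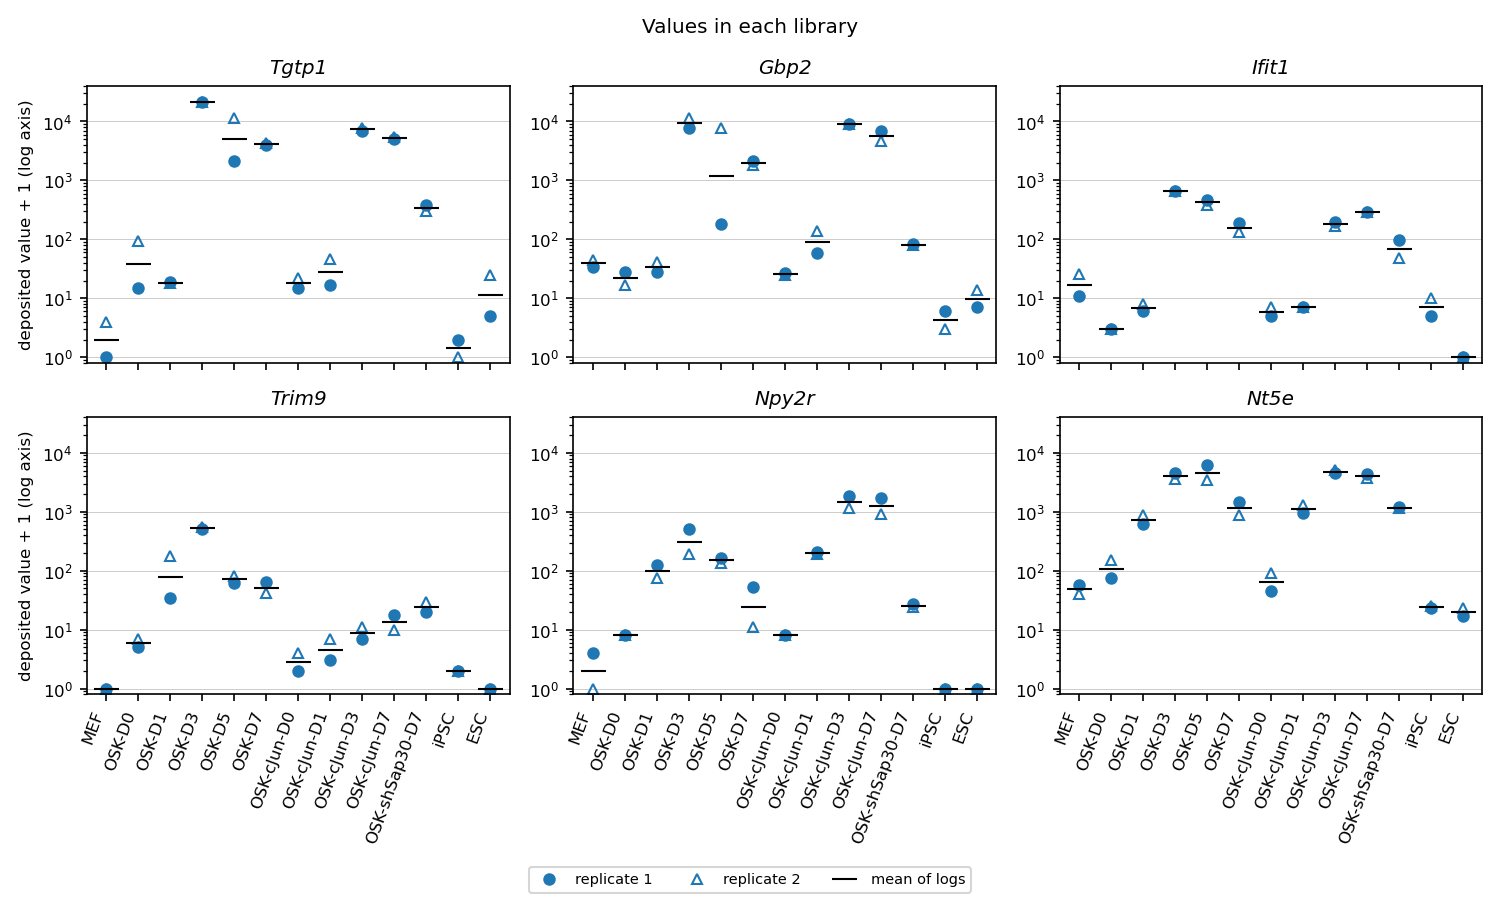
Values of 6 members in each of the 26 libraries (value + 1 on a log axis, circles replicate 1, triangles replicate 2, bars the mean of the logs). Tgtp1, Gbp2 and Ifit1 stay low until day 1 and are high on day 3 with and without Jun, Trim9 is highest on OSK day 3, Npy2r is highest with Jun, and the 2 libraries of OSK day 5 lie far apart for Gbp2.

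On OSK day 5 the 2 libraries disagreed on these genes. Replicate 1 was below replicate 2 for 12 of the 14 interferon members and for all 5 GTPase genes, by 2.14 to 5.41 log2 units. By at least 1 log2 unit, 6 of the 14 were lower in replicate 1 and 0 higher. Of the 115 other members, 14 were lower in replicate 1 by as much and 22 higher. Over all genes tested, 10.48% were lower in replicate 1 by as much and 11.99% higher. The library with low GTPase values is the one with low Pou5f1, Sox2 and Klf4, and the part of that in the result was not tested.

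**Figure D3:**
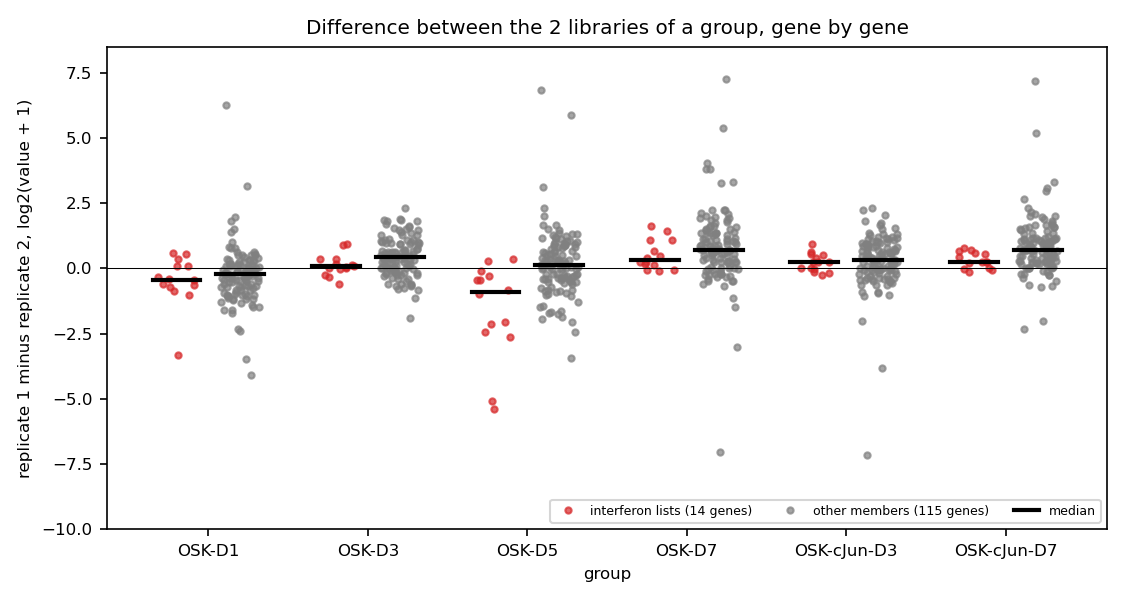
Replicate 1 minus replicate 2 in log2(value + 1), 1 point per member, for 6 groups, with bars at the medians. On OSK day 5, 12 of the 14 interferon genes (red) lie below 0, with a median of -0.90, while the other members centre at 0.14 there and at 0.72 on OSK day 7.

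The remaining interferon system was read from lists by role. Of interferon ligand genes, 3 were in the table. Ifng was at 0 in all libraries of MEF and of OSK days 0 and 1, at 12 and 9 on OSK day 3, at 12 and 11 on OSK-cJun day 3 and no higher than 14 in any library. Ifnk and Ifnz were at most 9 in any library. None of the 6 receptor genes was at least 1.5 higher on OSK day 3 than on day 0, and their median difference was -0.20. Of the signalling genes, Irf1 was at 47 and 26 on OSK day 0, 1263 and 1500 on day 3 and 821 and 682 on day 7, and Irf7 was at 25 and 11, 801 and 630, and 333 and 273. Both were high on day 3 and fewer than 1.5 log2 units lower on day 7, so the rule did not take them.

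Most genes of the system that were high on day 3 did not meet the rule for day 7. Of 54 antiviral effector genes in the table, 38 were at least 1.5 higher on OSK day 3 than on day 0 with a mean of at least 50, and 7 of these were also 1.5 above day 7. For the 15 GTPase genes these counts were 13 and 5, for the 15 sensor genes 8 and 1, for the 13 signalling genes 5 and 0, for the 8 feedback inhibitor genes 4 and 0, and for the 27 antigen presentation genes 20 and 1. Over all 16038 genes tested they were 729 and 129. Among the genes at least 1.5 higher on day 3 than on day 0 with a mean of at least 50, day 3 was compared with day 7. The median of day 3 minus day 7 was 1.34 for the GTPases, 0.74 for the effectors and -0.19 for antigen presentation. Over all genes tested that met these 2 conditions it was 0.525. B2m, the light chain of MHC class I, was at 8981 in both libraries on day 3 and 11668 in both on day 7. All these counts use the contrasts of the rule and are a description.

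**Figure D4:**
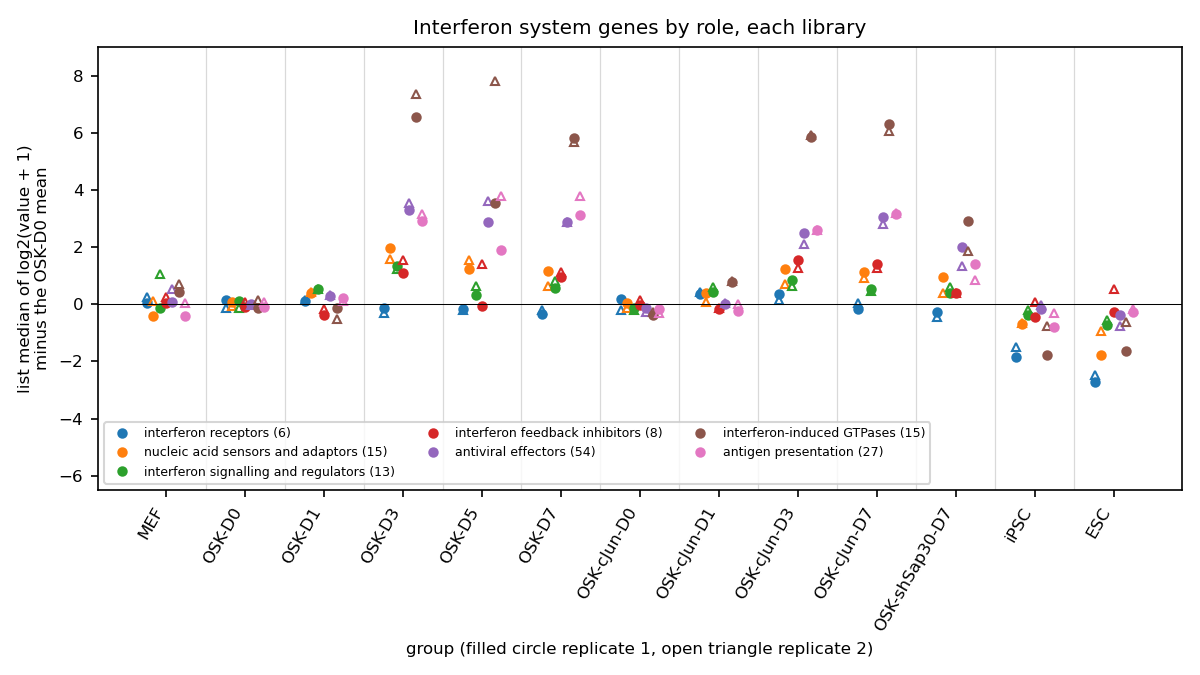
Median over the genes of each interferon list of log2(value + 1) minus the gene's mean on OSK day 0, in each library (circles replicate 1, triangles replicate 2). GTPase genes reach 6.55 and 7.34 on OSK day 3 and 3.56 and 7.80 on OSK day 5, effectors reach 3.28 and 3.53 on day 3, and receptors lie between -0.33 and 0.16 over the OSK course.

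The larger part of the 129 genes, 115, stands on no interferon list. Groups were made of them by known role after their values were seen. The largest holds 18 genes of neurons and glia: receptors, ion channels, neuropeptides, synaptic proteins and adhesion molecules. Another 55 of the 115 were given no role. Trim9, a brain-enriched ubiquitin ligase gene, was at 4 and 6 on OSK day 0, 33 and 180 on day 1, 514 and 560 on day 3, 62 and 80 on day 5 and 63 and 41 on day 7. Its day 3 libraries were close to each other and far above all others in the series, where no further library exceeded 180. Gad2, an enzyme gene of GABA synthesis, was at 6 and 7, 63 and 127, 281 and 454, 89 and 126, and 39 and 40. Scn10a, a sodium channel gene of sensory neurons, was listed at 0 in both day 0 libraries and was at 17 and 39, 180 and 184, 54 and 169, and 56 and 21 later.

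Npy2r, a receptor gene for neuropeptide Y, was at 7 and 7 on OSK day 0, 126 and 73 on day 1, 508 and 191 on day 3, 165 and 134 on day 5 and 51 and 10 on day 7. Mobp, a myelin protein gene, was at 6 and 8 on day 0 and 111 and 59 on day 3. Of 26 general neural markers used as a list, 0 were members. Of these, 6 were at least 1.5 higher on OSK day 3 than on day 0, and 3 of the 6 had a mean of at least 50. The median difference between days 3 and 0 over the list was 0.15. The pan-neuronal genes Dcx (5 and 2 on day 3), Elavl3 (0 and 2) and Syp (0 and 1) were at or near 0. Their list summed to 7034 and 6131 on OSK day 0 and 7119 and 6220 on day 3.

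A group of 12 members encodes regulators of transcription or chromatin. Msc (musculin), a helix-loop-helix repressor gene, was listed at 0 in MEF and was at 62 and 183 on OSK day 0, 213 and 700 on day 1, 1313 and 950 on day 3, 449 and 428 on day 5 and 157 and 95 on day 7. Tet2, which encodes an enzyme that oxidises methylated cytosine, was at 204 and 191, 567 and 851, 2414 and 2198, 450 and 661, and 779 and 734. In both, the day 3 libraries were above all others of the OSK course. Foxo4 was at 162 and 169 on day 0, 2614 and 1649 on day 3 and 864 and 476 on day 7. Nfe2l3, a relative of the antioxidant regulator Nrf2, was at 24 and 23, 1239 and 638, and 296 and 102. Prox1, Nfatc2, Plagl2, Zkscan2, Tox2, Bcl3, Bcl6 and Trp63 had day 3 means between 67.5 and 871. Bcl3 was the 1 member of the 16 NF-kappaB genes listed, and Trp63 the 1 member of the 17 keratinocyte markers.

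Genes known from immune cells, most of them for surface proteins, form a smaller group. Nt5e (CD73), which makes adenosine, was at 74 and 152 on OSK day 0, 609 and 865 on day 1, 4616 and 3611 on day 3, 6123 and 3410 on day 5 and 1458 and 885 on day 7. Days 3 and 5 overlapped. Cd200r3, an activating receptor gene of mast cells and basophils, was at 53 and 47, 142 and 253, 654 and 444, 399 and 167, and 78 and 55. The surface protein genes Spn (CD43), Il7r and Vtcn1 and the cytoplasmic exchange factor gene Dock8 were at 804 and 884, 65 and 49, 73 and 35, and 161 and 79 on day 3. Markers of macrophages and blood were read beside them: the 23 listed genes summed to 914 and 241 on OSK day 0, 520 and 368 on day 3 and 660 and 1036 on day 7, and among them Cd3e, Itgax and Lyz1 were listed at 0 in both day 3 libraries. Ptprc (CD45) was at 77 and 35 on day 0 and 76 and 37 on day 3. In the list 2 genes were at least 1.5 higher on day 3 than on day 0, Cd68 and Cd74. Cd68 was at 22 and 12 on day 0 and 76 and 57 on day 3. Cd74 was at 0 in both day 0 libraries and at 11 and 33 on day 3, and its 395 and 758 on day 7 made the larger part of the day 7 sums. Adgre1, Cd14, Cd52, Csf1r, Fcer1g, Lyz2, Spi1 and Tyrobp were at least 1.5 lower on day 3. Adgre1 went from 50 and 18 to 7 and 2, and Lyz2 from 461 and 49 to 140 and 18. Mpeg1, a macrophage gene outside the list and just outside the rule, was at 74 and 13 on day 0, 606 and 680 on day 3 and 312 and 167 on day 7. Their part in the values of the surface genes was not tested.

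Enzymes and transporters included some of the highest values. Abca1, which exports cholesterol from cells, was at 1458 and 1519 on OSK day 0, 6123 and 11667 on day 1, 7721 and 11667 on day 3, 7721 and 6123 on day 5 and 1239 and 595 on day 7. Its day 1 libraries already overlapped those of day 3. Gda, guanine deaminase, was at 161 and 54, 1272 and 620, 2808 and 1013, 5038 and 997, and 290 and 72, with libraries far apart on days 3, 5 and 7. Upp1, uridine phosphorylase, was at 76 and 28, 848 and 598, 823 and 584, 329 and 555, and 275 and 167. Kynu, kynureninase of tryptophan breakdown, was listed at 0 in all libraries of days 0 and 1 and was at 77 and 51 on day 3, 74 and 89 on day 5 and 41 and 0 on day 7.

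Huwe1, Birc6, Dst and Rnf213 encode very large proteins. Huwe1, a ubiquitin ligase gene, was at 3421 and 6138 on OSK day 0, at the ceiling of 21544 in both libraries on day 3 and at 6943 in both on day 7. Birc6, an apoptosis inhibitor gene, was at 1629 and 2074, 6922 and 6922, and 2151 and 1400 on these days, and Dst, a cytoskeletal linker gene, at 2151 and 1769, 8981 and 6929, and 2355 and 1904. Day 3 minus day 0 was 2.23 for Huwe1, 1.91 for Birc6, 2.02 for Dst and 4.06 for Rnf213. Of the 119 protein-coding members, 9 (7.563%) have a longest annotated transcript of at least 10000 bases, beside 2.586% of the 14540 protein-coding genes tested. The median longest transcript was 4117 bases in members and 3416 in all. The rule asked members for a mean of at least 50 in values not scaled for gene length. The part of that in these lengths was not tested.

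The OSK-cJun course used none of the libraries of the rule, so it tests whether these genes also changed there. Between OSK-cJun days 0 and 3, 81 of the 129 members rose and 1 fell (limma, Benjamini-Hochberg adjusted p below 0.05 and at least a 2-fold change). Over all genes tested 7.44% were called higher and 6.9% lower. The median log2 fold of members was 2.40, beside -0.02 over all genes, and 123 of 129 had a fold above 0. All 14 interferon members rose. Gbp2 rose from 26 and 24 to 8993 in both libraries (log2 fold 8.44, SE 1.04, adjusted p = 2.69e-05), Tgtp1 from 14 and 21 to 6929 and 7721 (8.65, SE 0.90, adjusted p = 5.24e-06) and Ifit1 from 4 and 6 to 200 and 169 (4.97, SE 0.42, adjusted p = 4.35e-07).

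Outside the interferon lists, Nt5e rose from 45 and 90 to 4616 and 5023 (log2 fold 6.22, SE 0.37, adjusted p = 2.22e-08), Npy2r from 7 and 7 to 1828 and 1156 (7.51) and Gpr50 from 14 and 12 to 1730 and 1386 (6.79). Zkscan2, a zinc finger gene, rose from 19 and 24 to 512 and 518 and Arhgap26, a GTPase-activating protein gene, from 19 and 15 to 241 and 192. Carmil1, a regulator of actin capping, was the 1 member that fell, from 94 and 84 to 37 and 39 (log2 fold -1.21, SE 0.37, adjusted p = 0.0297), and this call was lost when any 1 of its 4 libraries was left out (adjusted p from 0.0864 to 0.147). In the OSK libraries Carmil1 had been at 75 and 52 on day 0 and 368 and 318 on day 3. Trim9 (1 and 3 on OSK-cJun day 0, 6 and 10 on day 3) and Msc (10 and 17, 118 and 28) did not pass the test, with adjusted p of 0.0857 and 0.109.

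**Figure D5:**
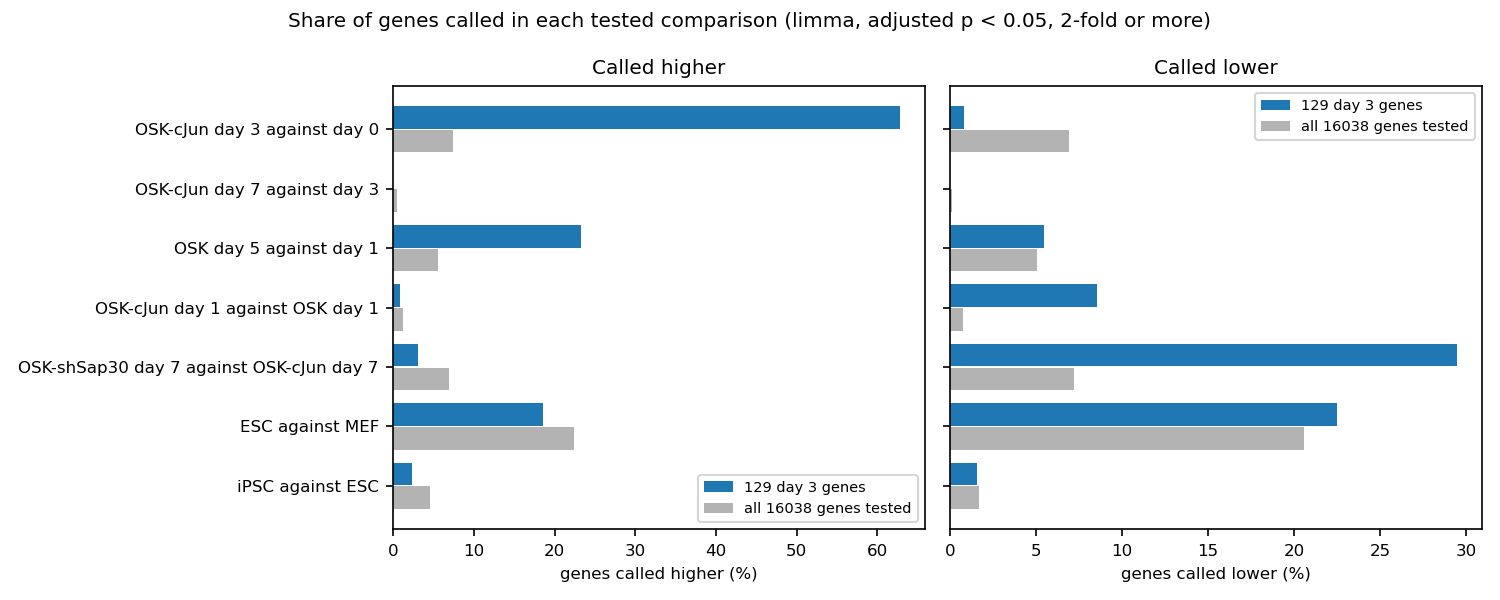
Share of the 129 genes (blue) and of all 16038 genes tested (grey) called higher (left) and lower (right). The 7 comparisons are between groups that the rule did not use, with a variance from all 26 libraries. The members stand furthest from all genes among those higher on OSK-cJun day 3 than on day 0 (62.79% beside 7.44%) and those lower in OSK-shSap30 than in OSK-cJun on day 7 (29.46% beside 7.22%).

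By the lists, 14 of 15 GTPase genes, 37 of 53 tested effector genes, 19 of 27 antigen presentation genes, 7 of 15 sensor genes, 5 of 13 signalling genes and 4 of 8 feedback inhibitor genes rose between OSK-cJun days 0 and 3. One effector gene, 1 signalling gene and 1 feedback inhibitor gene fell, and 0 of the 6 receptor genes was called. Of the ligand genes only Ifng could be tested, and it was called higher, from 0 in both day 0 libraries to 12 and 11 on day 3 (adjusted p = 0.00172). These values lie near 0, where recovery by the fit was not measured, and the day 3 pair itself helped Ifng to pass the filter on low values. The receptor genes had a median log2 fold of 0.26. The list medians were 6.62 for GTPases, 2.49 for effectors and 2.75 for antigen presentation, beside -0.02 over all genes.

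Between OSK-cJun days 3 and 7, 0 members were called in either direction by limma, beside 0.574% of all genes (0.468% higher and 0.106% lower). At an unadjusted p below 0.05, 1 member was higher and 8 were lower, and limma without a variance trend, with a replicate block or on these 4 libraries alone called 0 as well. The median log2 fold was -0.35, with 87 of 129 members below 0. Gbp2 was at 8993 in both libraries on day 3 and 6942 and 4629 on day 7, Ifit1 at 200 and 169 and then 294 in both, and Npy2r at 1828 and 1156 and then 1677 and 911. The difference between this course and the fall in OSK was not tested, because the rule chose the fall in OSK.

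On day 7 itself both OSK-cJun libraries were above both OSK libraries for 71 members and below for 13, beside 24.5% and 28.9% of all genes, where the rule had chosen low OSK day 7 values. On day 3 both OSK-cJun libraries were below both OSK libraries for 77 members and above for 20, beside 26.9% and 23.3%, where the rule had chosen high OSK day 3 values. These counts are descriptions without a test. Among the 20 above were Npy2r (1828 and 1156, against 508 and 191 in OSK), Klk10, a kallikrein protease gene (658 and 686, against 49 and 74), Nppc, the C-type natriuretic peptide gene (290 and 214, against 69 and 77), and Upp1 (1794 and 1769, against 823 and 584). Among the 77 below were Trim9 (6 and 10, against 514 and 560), Scn10a (0 and 3, against 180 and 184), Msc (118 and 28, against 1313 and 950), Atp2a3, a calcium pump gene (5 and 4, against 264 and 170), Tet2 (435 and 538, against 2414 and 2198) and Wars (6118 and 5017, against 21544 in both). Of the 14 interferon members 11 were below and 0 above, among them Rsad2 (18 and 9, against 295 and 156).

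The difference between the courses with and without Jun was tested on day 1, which the rule did not use. Of the 129 members, 1 was higher and 11 were lower in OSK-cJun than in OSK on day 1, beside 1.24% and 0.742% of all genes (1.98% in all). The median log2 fold was -0.53. Trim9 was at 2 and 6 in OSK-cJun and 33 and 180 in OSK (log2 fold -4.10, SE 0.64, adjusted p = 0.00276), Msc at 4 and 19 against 213 and 700 (-5.28, SE 0.86, adjusted p = 0.00377), and Scn10a at 0 and 2 against 17 and 39 (-3.95, SE 0.72, adjusted p = 0.00758). Serpina3i, a protease inhibitor gene, Rbm24, an RNA-binding protein gene, and Col28a1, a collagen gene, were also lower. The 1 that was higher was Gm10522. None of the 14 interferon members was called, while the ligand gene Ifng was called higher at values near 0 (6 and 8, against 0 in both OSK libraries, adjusted p = 0.0379). The 11 depended on single libraries: 0 were called without OSK-cJun day 1 replicate 1 or without OSK day 1 replicate 2, 4 without OSK-cJun day 1 replicate 2 and 7 without OSK day 1 replicate 1.

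Within the OSK course, days 1 and 5 were not part of the rule. Between them 30 members rose and 7 fell, beside 5.52% and 5.07% of all genes tested. The median log2 fold was 0.41. All 14 interferon members rose. Ifit1 rose from 5 and 7 to 467 and 383 (log2 fold 5.94, SE 0.42, adjusted p = 1.53e-07), Tgtp1 from 18 and 17 to 2151 and 11667 (8.08, SE 0.90, adjusted p = 2.15e-05) and Gbp3 from 26 and 24 to 525 and 2316 (5.41, SE 0.64, adjusted p = 3.16e-05). Nt5e and Slfn5 rose as well. Those that fell were Wdr11, Slc6a17, Gpr50, Rbm24, Arhgef33, Nrcam and Bcl6. Gpr50 fell from 1346 and 1858 to 333 and 167 (log2 fold -2.74, SE 0.58, adjusted p = 0.00406), and Slc6a17, a neuronal amino acid transporter gene, from 68 and 141 to 11 and 14. Without OSK day 5 replicate 1, the library low in the OSK factors, 24 members rose and 7 fell. Without OSK day 1 replicate 1, 17 rose and 5 fell, and without OSK day 1 replicate 2, 23 rose and 4 fell.

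OSK-shSap30 was compared with OSK-cJun on day 7, a contrast between perturbed cells in which neither is the plain OSK control. Of the members, 38 were lower and 4 higher in OSK-shSap30, beside 7.22% and 6.91% of all genes. The median log2 fold was -1, beside 0 over all genes. Nppc was at 2 and 2 in OSK-shSap30 and 471 and 224 in OSK-cJun (log2 fold -6.76, SE 0.75, adjusted p = 1.54e-05), Dock8, a guanine nucleotide exchange factor gene of leukocytes, at 3 and 1 against 596 and 177 (-6.85, SE 0.70, adjusted p = 8.24e-06), and Npy2r at 26 and 23 against 1677 and 911 (-5.60, SE 0.65, adjusted p = 2.44e-05). Rap1gap2, Tox2 and Plcb1 were lower too. All 5 GTPase members were lower, from Gbp3 at 325 and 304 against 2078 and 1737 to Gbp2 at 83 and 78 against 6942 and 4629 (log2 fold -6.12, SE 1.04, adjusted p = 0.000688). The genes called higher were Tnr, Scn10a, Slc6a17 and Gm14569. Tnr, the matrix protein tenascin-R, was at 88 and 477 against 14 and 12. Without OSK-cJun day 7 replicate 1, 24 members were lower and 7 higher.

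Of the lists, 11 of 15 GTPase genes, 20 of 27 antigen presentation genes and 17 of 53 effector genes were lower in OSK-shSap30 than in OSK-cJun on day 7, and 0 of each were higher. Ifng was called lower too, again at values near 0 (0 in both libraries against 8 and 14, adjusted p = 0.00242). Against OSK on day 7, whose libraries the rule used, both OSK-shSap30 libraries were below both OSK libraries for 42 members and above for 29, beside 26.4% and 24.5% of all genes. The GTPase members were below in 5 of 5 (Gbp2 at 83 and 78 against 2133 and 1798, Tgtp1 at 375 and 303 against 4013 and 4307). Over the 14 interferon members 10 were below and 1, H2-T24, above, and over the 115 others 32 were below and 28 above.

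Between MEF and ESC, 24 members (18.6%) were higher and 29 (22.48%) lower in ESC, near the shares of all genes, 22.4% and 20.6%. Upp1 was higher in ESC (1017 and 1088, against 9 and 0 in MEF, log2 fold 8.38, SE 0.70, adjusted p = 3.8e-08), as were Tet2 (906 and 742 against 157 and 71), Plekhh1, Mobp, Msc and Mtr, the methionine synthase gene. Mamdc2 was lower (0 and 1 against 83 and 172, log2 fold -6.41, SE 0.61, adjusted p = 1.52e-07), as were Slc6a17, Ifit1, Hspa12b, Pcdhb20 and Ctsk, the collagen-cutting protease cathepsin K (4 and 10 against 207 and 641). On OSK day 3 both libraries were above both MEF libraries for 123 members and below for 0, beside 29.9% and 30.8% of all genes. The rule had chosen high OSK day 3 values, so this count is a description without a test.

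In both MEF libraries 42 members were below 10, in both iPSC libraries 59 and in both ESC libraries 58. Between iPSC and ESC 3 members (2.326%) were higher in iPSC and 2 (1.55%) lower, no more than the shares of all genes, 4.57% and 1.65%. Ifit1 was listed at 0 in both ESC libraries and was at 4 and 9 in iPSC. Mamdc2 (5 and 14 against 0 and 1) and Serpina3i (20 and 44 against 3 and 8) were the others that were higher, and Rnf213 (479 and 394 against 1437 and 1255) and Trpv3 (1 and 0 against 5 and 5) were lower. The values of Ifit1, Mamdc2 and Trpv3 lie near 0, where recovery by the fit was not measured.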

How the data were processed

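Per the labels' protocols, TRIzol RNA went into TruSeq libraries read on a NextSeq 500. The submitters' processing notes name mm10, RSEM, Bowtie2 and bcl2fastq without versions. The values the authors deposited are a normalised score in whole numbers, not counts: library totals ran from 4619641 to 4624161 and values at one rank differed by at most 2 between libraries. Sequencing depth is therefore unknown, and no counting interval is given. A table of gene IDs gave names for 18039 of 18198 genes, and GENCODE M21 (GRCm38) gave positions.

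The scale was log2(value + 1). limma 3.58.1 (R 4.3.3, statmod 1.5.0) was fitted to genes that reached 10 in 2 or more of the 26 libraries, with 1 mean per group, a variance trend and robust moderation. A call needed a Benjamini-Hochberg adjusted p below 0.05 over all 16038 genes and a log2 fold of at least 1. Comparisons that use OSK day 0, 3 or 7 carry no test, but libraries of those days enter the variance estimate of the fit on 26 libraries. The fit was tested on simulated data of the same layout with normal noise, in which 200 genes of middle level were changed. It recovered 65 to 78 percent of the genes given a log2 fold of 1.5 and 90 to 100 percent of those given 3. Recovery among genes with values near 0 was not measured. The members and the 24 gene lists were chosen with earlier results of these data known. Named genes are the members with the largest changes and levels, up to 4 per list, and up to 6 per comparison and direction. Others named were chosen after their values were seen. Alternatives changed the rule, the pseudocount, the filter, the libraries fitted, the moderation and the centring, and added a replicate block. Roles of genes come from general knowledge.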

Additional observations from a re-analysis of the deposited data

How the results depend on the processing

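The choice of members moved most with its thresholds. With both differences at 1.0 the rule gave 313 genes and at 2.0 it gave 59, and with a minimum of 20 on OSK day 3 it gave 202. Leaving out 1 library of OSK days 0, 3 or 7 gave 96 to 196 genes, the highest without OSK day 3 replicate 2. Of the calls of single genes tested under the alternatives, 493 kept their side of the threshold, 68 lost it and 0 reversed.

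A fit on only the 4 libraries of a comparison has few residual degrees of freedom. It gave 0 calls over all genes for OSK-cJun day 7 against day 3 and for OSK-cJun day 1 against OSK day 1 (0 and 0 members), 340 for OSK day 5 against day 1 (13 members higher, 0 lower), 522 for OSK-shSap30 against OSK-cJun (0 higher, 19 lower) and 376 for iPSC against ESC (0 higher, 1 lower). In the fit on 26 libraries these were 92, 318, 1698, 2267 and 998. For OSK-cJun day 3 against day 0 this fit still called 72 members higher.

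With 0.1 added before log2, OSK-cJun day 7 against day 3 gave 59 calls, OSK-cJun day 1 against OSK day 1 gave 0 members higher and 7 lower, OSK-shSap30 against OSK-cJun 2 higher, and iPSC against ESC 6 higher and 5 lower. With 10 added these were 146 calls, 5 members higher on day 1, 1 higher and 1 lower for iPSC against ESC, and 19 lower for ESC against MEF. On day 1, no filter gave 0 members higher and plain moderation 7 lower.

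Leaving out 1 library gave 19 to 46 calls for OSK-cJun day 7 against day 3 (0 to 1 members lower), 1054 to 1796 for OSK day 5 against day 1 (17 to 24 members higher, 4 to 7 lower), 52 to 160 for OSK-cJun day 1 against OSK day 1 (0 higher, 0 to 7 lower), 1459 to 2049 for OSK-shSap30 against OSK-cJun (2 to 7 higher, 24 to 38 lower) and 536 to 872 for iPSC against ESC (1 to 4 higher). For OSK-cJun day 3 against day 0, 60 to 69 members rose and 0 fell. The cause of these shifts was not tested beyond the smaller number of libraries.

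Replicate numbers are shared across groups, but nothing in the labels pairs them, and the correlation of same-numbered deviations lay between -0.05 and 0.28. With a replicate block 82 members rose and 1 fell on OSK-cJun day 3, 32 rose and 8 fell by OSK day 5, and 43 were lower in OSK-shSap30, and 30 genes in place of 17 were lower on OSK-cJun day 7 than on day 3, with 0 members in both fits. No other count of calls over all genes, and no count of members, moved by over 1.5 times.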
